A study of Rattus norvegicus with 18 samples.

Results

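Potassium channel genes were followed in the brains of rat pups whose dams had been exposed to BDE-47, a brominated diphenyl ether flame retardant. The members were all array probes annotated with a single gene symbol beginning Kcn and a further letter, which gave 85 probes of 80 genes among 22523 probes and 13337 annotated genes in all. Expression was measured on 18 Illumina bead arrays, each hybridised with RNA of 1 female Wistar pup. Dams received caudal injections of vehicle (ethanol, Cremophor EL and water), of 0.002 mg/kg BDE-47 or of 0.2 mg/kg BDE-47, and 1 pup was taken from each of 3 litters per group. Total brain was collected at postnatal day 10 after 3 injections per dam, and frontal lobe at postnatal day 41 after 6 injections, so that tissue, age and exposure schedule differ together. The day 41 schedule is that of the sample records, whereas the text describing the whole series gives day 10 for both tissues. The 6 groups therefore hold 3 arrays each, and the vehicle pups share the injections, ethanol and Cremophor EL with the exposed pups.

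Potassium channels let potassium leave or enter the cell and so set the resting potential, the shape of the action potential and the rate of firing. Voltage-gated pores (Kcna, Kcnb, Kcnc, Kcnd, Kcnq and Kcnh genes) open on depolarisation, silent subunits (Kcnf, Kcng, Kcns and Kcnv) form channels only together with other Kv subunits, and calcium- or sodium-activated pores (Kcnma, Kcnn and Kcnt) respond to ions inside the cell. Inward rectifiers (Kcnj) and leak channels (Kcnk) act near the resting potential, and auxiliary subunits (Kcnab, Kcne, Kcnip and Kcnmb) change the gating or delivery of the pores. Many of these genes are switched on in neurons as they mature after birth.

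The deposited values are normalised signals on a log2-like scale, and every difference below is a difference of such values. A mean under 8 over the 18 arrays was taken as near the floor, because the values of all probes start at 7.45 and 57.1% of all probes had a mean under 8. Of the 85 potassium channel probes 44 lay near the floor and 41 did not, and 8 had a mean of at least 10. Neither detection p values nor chip numbers were used here, and the brightness of different probes does not rank their genes. Array medians were 7.88 to 7.89 in total brain and 7.83 to 7.84 in frontal lobe, a gap between tissues that was larger than the range within either. The labelled tissues were checked on marker genes. Pcp2, a Purkinje cell gene of the cerebellum, averaged 10.06 in vehicle total brain and 7.65 in vehicle frontal lobe, while Slc17a7, the vesicular glutamate transporter of cortical excitatory neurons, averaged 9.31 and 10.47. In bulk tissue, fewer cells of a type and less RNA per cell cannot be told apart.

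All 4 Kv3 probes, all 3 Kv4 probes and the single Kv2 probe read above the floor. So did 6 of 10 silent subunit probes, 5 of 9 Kcnh probes, 4 of 6 calcium- or sodium-activated, 7 of 16 auxiliary, 5 of 13 inward rectifier, 3 of 11 leak channel, 2 of 9 Kv1 and 1 of 3 Kv7 probes. Several channels known from brain therefore gave little signal on this array. Kcna1, a Kv1 subunit of axons, averaged 7.87 and Kcnj10, the inward rectifier of astrocytes, averaged 7.85. Kcnj3, a G protein-gated inward rectifier subunit, averaged 7.78, and Kcnq3, a subunit of the M current, averaged 7.75. For these genes a change could not have been seen unless it lifted the signal. Between pups of a group, members above the floor varied less than all such probes in total brain, but more in frontal lobe. The members' median standard deviation among the 3 pups of a group came to 0.081 for total brain and 0.132 for frontal lobe. All probes above the floor gave 0.106 and 0.115.

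The Kv3 genes Kcnc1 and Kcnc2 encode fast delayed rectifiers that allow high-frequency firing, as in parvalbumin interneurons, and at least 1 of them is described in each frontal lobe comparison below. Their promoters are shown to set them side by side, as the 250 bases before the gene start in RefSeq on build GRCr8, plus strand in both cases. The Kcnc1 window lies at chr1:106038997-106039246 and the Kcnc2 window at chr7:49587364-49587613. Capitals mark GC boxes (GGGCGG, or CCGCCC on the other strand), to which Sp-family factors bind.
Kcnc1: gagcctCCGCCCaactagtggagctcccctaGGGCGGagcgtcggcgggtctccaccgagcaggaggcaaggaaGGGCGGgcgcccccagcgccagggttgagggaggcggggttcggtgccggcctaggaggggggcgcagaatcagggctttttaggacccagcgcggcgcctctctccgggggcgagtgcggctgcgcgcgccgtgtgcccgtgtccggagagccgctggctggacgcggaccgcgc
Kcnc2: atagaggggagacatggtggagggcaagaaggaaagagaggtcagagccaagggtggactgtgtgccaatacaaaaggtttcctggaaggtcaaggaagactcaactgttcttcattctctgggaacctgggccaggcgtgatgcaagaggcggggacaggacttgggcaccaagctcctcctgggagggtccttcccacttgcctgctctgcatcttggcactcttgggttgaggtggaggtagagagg
The Kcnc1 window is 74.4% G or C with 3 GC boxes, whereas the Kcnc2 window is 56% G or C and holds none of these letters. Promoters were found for 61 member genes. A GC box was present in 30 of the 61 (49.2%) and in 30.5% of all 33469 promoters of this length. The TATA box letters TATAAA, on either strand, were in 1 of the 61 (1.64%) and in 12.9% of all promoters, and the palindromic cAMP response element TGACGTCA was in 0 of 61 and in 1.59% of all. These matches describe letters only.

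The first comparison set vehicle frontal lobe at day 41 against vehicle total brain at day 10 and asked how channel expression differs between the more mature cortical region and the young whole brain. Kcnc2 of the Kv3 class, the leak channel Kcnk1, the pore Kcnh1, the silent subunit Kcnv1 and the BK accessory subunit Kcnmb4 were higher in frontal lobe, by 1.03 to 1.99 log2 units at their strongest probes. With limma and Benjamini-Hochberg adjustment over all probes, 28 of 85 members were higher (background 9.01%) and 20 were lower (background 43.7%), or 48 in either direction (background 52.7%). The vehicle arrays of the tissues did not overlap for 30 higher members (background 10%) and 25 lower ones (background 51.6%), and 55 had an unadjusted p under 0.05 (background 59.7%). The median over the 85 was -0.02 beside -0.07 over all probes. Among members above the floor 23 of 41 were higher and 6 lower, shares of 56.1% and 14.6% beside 19.2% and 34.9% of all probes above the floor. Their median was 0.28 beside -0.09.

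Kcnc2 had 3 probes, all higher in frontal lobe. Probe ILMN_1375686 read 8.94, 8.93 and 8.51 in vehicle total brain and 10.87, 11.07 and 10.41 in vehicle frontal lobe, a difference of 1.99 (SE 0.20, adjusted p = 4.79e-06). Probe ILMN_1375744 read 10.78, 10.94 and 10.58 against 12.33, 12.52 and 12.13, a difference of 1.56 (SE 0.18), and probe ILMN_2039099 gave 0.74 (SE 0.10). No array of one tissue reached into the range of the other for any of the 3 probes, which differed in size though not in direction. Kcnc1 read 9.20, 9.36 and 9.26 against 9.85, 9.88 and 9.75, a difference of 0.56 (SE 0.06, adjusted p = 1.52e-05).

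Kcnk1, a leak channel of the tandem-pore family, read 11.28, 11.58 and 11.30 in vehicle total brain and 12.75, 13.10 and 12.59 in vehicle frontal lobe, a difference of 1.43 (SE 0.21, adjusted p = 1.08e-04). It was the only 1 of 11 leak channel probes that was higher. Kcnh1 and Kcnh3, pores of the ether-a-go-go superfamily, were higher by 1.23 (SE 0.09) and 0.74 (SE 0.17). Kcnv1, a silent subunit that modifies Kv2 channels, was higher by 1.20 (SE 0.15). Kcnmb4, the BK channel subunit of neurons, read 9.69, 9.84 and 9.89 against 10.71, 10.81 and 10.99, a difference of 1.03 (SE 0.08). The adjusted p of Kcnmb4 was 4.23e-07, and its arrays did not overlap between tissues.

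Kcnip4, a calcium-binding partner of Kv4 channels, was higher by 0.76 (SE 0.18), and Kcnq5, a pore of the M current, by 0.74 (SE 0.17). Kcnj11, the pore of the ATP-sensitive potassium channel that links metabolism to excitability, read 8.10, 8.09 and 8.13 against 8.66, 8.71 and 8.64. Its difference was 0.56 (SE 0.04, adjusted p = 2.22e-07), several times the spread within either group. Smaller differences that passed were those of Kcnip3 (0.54), Kcns3 (0.53), Kcnf1 (0.47), Kcnb2 (0.45), Kcnj9 (0.39), Kcna4 (0.36), Kcnj4 (0.28), Kcns1 (0.28), Kcnj12 (0.28), Kcna2 (0.22), Kcnt1 (0.19), Kcnma1 (0.16), Kcnh7 (0.16), Kcnab2 (0.15) and Kcng3 (0.10), beside 1 probe of Kcnh8 given below. Of these Kcna2, Kcnma1, Kcnh7, Kcnab2 and Kcng3 lay near the floor. By class, higher calls fell on 4 of 4 Kv3 probes, 5 of 10 silent subunits, 4 of 9 Kcnh, 4 of 13 inward rectifiers and 4 of 16 auxiliary subunits. Kv4 pores did not follow the Kv3 genes. Kcnd2 gave 0.09 (SE 0.13) and Kcnd3 0.32 (SE 0.16), neither past the threshold, and Kcnd1 was lower.

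Members lower in frontal lobe were led by Kcnip1, another Kv4 partner, which read 9.20, 9.02 and 9.23 in vehicle total brain and 8.31, 8.42 and 8.71 in vehicle frontal lobe. Its difference was -0.67 (SE 0.11, adjusted p = 2.38e-04), with no overlap. Kcnd1, a Kv4 pore, gave -0.47 (SE 0.09) and Kcnh6, an ERG-type pore, -0.26 (SE 0.05). These 3 were the only lower calls among 20 that also passed with each array centred on its median, centred on its brighter probes, or quantile normalised. All 28 higher calls passed under each of those scalings. The split of members was 28 higher and 20 lower as deposited, 30 and 5 after quantile normalisation, 30 and 7 after median centring and 32 and 3 after centring on the brighter probes, and 25 and 7 when only the brighter 50% of probes were fitted. Over all probes the share of calls that were higher moved likewise, from 17.1% as deposited to 47.0%, 39.6% and 54.3% under those scalings. Other lower calls, which did not hold under every scaling, included Kcnmb2 (-0.22), Kcnn3 (-0.22), Kcnj16 (-0.20), Kcne2 (-0.17), Kcnq1 (-0.13), Kcnn1 (-0.12), Kcnk9 (-0.11) and Kcnv2 (-0.11). Of the 20 lower calls 14 lay near the floor. Kcnh8 had 2 probes that disagreed, at -0.13 for ILMN_1360312, which lay near the floor, and 0.36 for ILMN_1651026.

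Marker genes of cells moved with the same contrast. All 3 measured excitatory neuron markers and 3 of 5 interneuron markers were higher in frontal lobe, among them Pvalb, a marker of fast-spiking interneurons, by 1.56. The 7 general neuron markers split, with 3 higher and 2 lower. Of the meningeal and fibroblast markers 6 of 7 were lower, as were 3 of 4 cerebellar markers. Astrocyte markers averaged 11.48 to 11.70 in vehicle total brain and 11.98 to 12.28 in vehicle frontal lobe, with 3 of 6 called higher. Oligodendrocyte markers averaged 10.03 to 10.52 and 10.57 to 10.87, again with 3 of 6 called higher. Over all probes 9.01% were called higher and 43.7% lower in this contrast. The marker calls are those of the values as deposited, without the other scalings. The part of the marker genes in the channel differences was not tested.

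**Figure D1:**
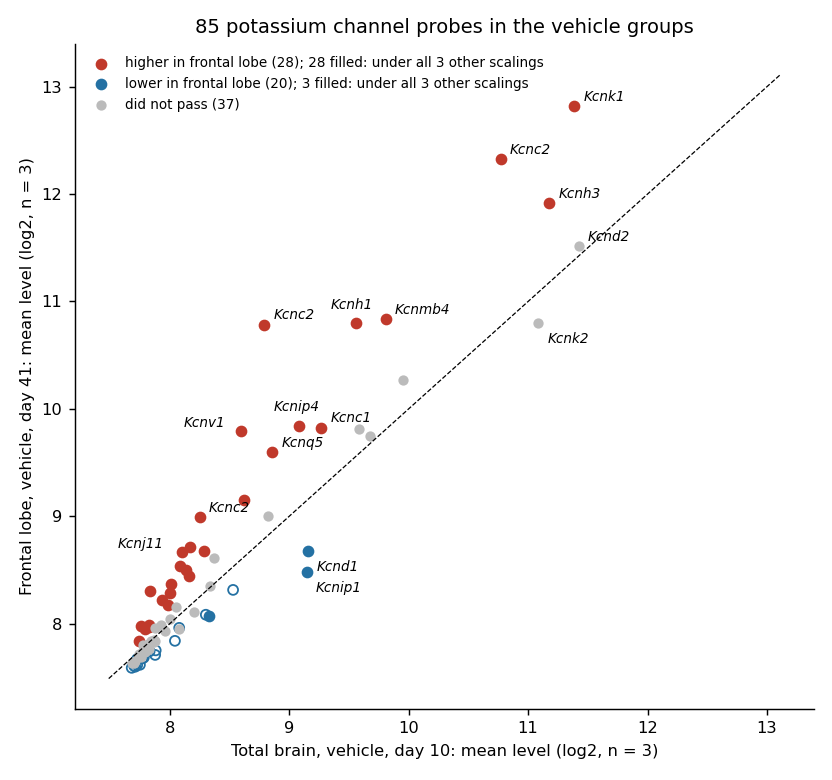
Mean log2 level of each of the 85 potassium channel probes in vehicle total brain (horizontal axis, n = 3) and vehicle frontal lobe (vertical axis, n = 3), with the dashed line marking equal levels. Red points (28) were higher and blue points (20) lower in frontal lobe; filled red and blue points passed under all 3 other scalings, and grey points (37) did not pass. Kcnc2, Kcnk1, Kcnh1, Kcnv1 and Kcnmb4 stand farthest above the line, and Kcnip1 and Kcnd1 lie below it.

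Exposure was compared within each tissue. In frontal lobe at 0.2 mg/kg against vehicle, 1 of 85 members passed, Kcnj11, which was lower (background 1.14%, or 0.497% for lower and 0.644% for higher calls). Kcnj11 read 8.66, 8.71 and 8.64 with vehicle, 8.51, 8.57 and 8.65 at 0.002 mg/kg and 8.30, 8.38 and 8.46 at 0.2 mg/kg. The 0.2 mg/kg arrays lay below all vehicle and all 0.002 mg/kg arrays, and the 0.002 mg/kg group overlapped vehicle. The limma difference at 0.2 mg/kg was -0.29 (SE 0.05, adjusted p = 0.0444). The call was lost without vehicle replicate 1 (-0.29, adjusted p = 0.118) or 2 (-0.26, 0.140), and without 0.2 mg/kg replicate 1 (-0.25, 0.0981) or 2 (-0.29, 0.114). It was kept without vehicle replicate 3 (-0.30, adjusted p = 0.0366) and without 0.2 mg/kg replicate 3 (-0.33, 0.0351). It was also lost with trend and robust priors (adjusted p = 0.0561), only the 2 groups compared (0.136), array weights (0.0568) and a block for the replicate number (0.0765).

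Other members were below vehicle on average at 0.2 mg/kg without passing. Of the 85 probes 54 lay below 0, with a median of -0.03 beside 0.00 for all probes. Here and below, counts below 0 have at most the median of all probes as a background. Among those above the floor 27 of 41 lay below 0, with a median of -0.12 beside 0.01 for all probes above the floor. The 0.2 mg/kg and vehicle arrays did not overlap for 17 members that were lower (20.0%, background 8.76%) and 4 that were higher (4.71%, background 8.85%). At an unadjusted p under 0.05 there were 16 members below and 2 above vehicle, 21.2% together beside a background of 15% that pools both directions. All 4 Kv3, 3 Kv4 and 3 Kv7 probes and the Kv2 probe were among those below 0.

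**Figure D2:**
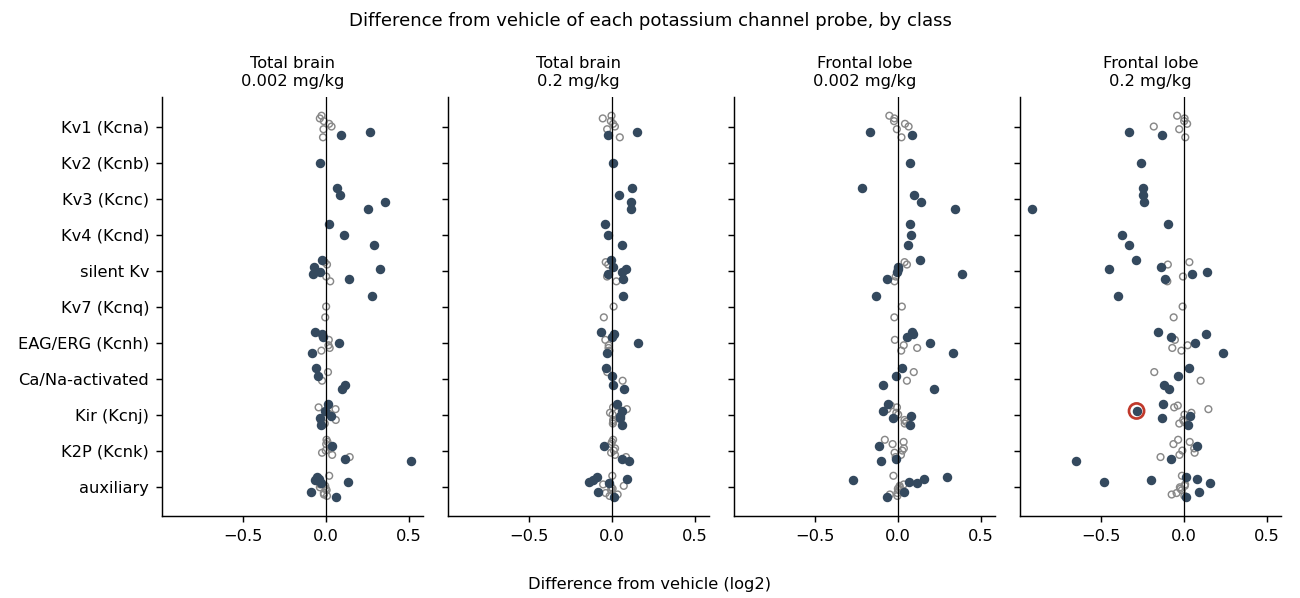
Difference from vehicle (log2, horizontal axis) of each of the 85 potassium channel probes at each dose and tissue, in rows by channel class. Filled points have a mean of at least 8 and open points lie nearer the floor; the red ring marks Kcnj11, the 1 probe past the threshold. At 0.2 mg/kg in frontal lobe 54 probes lie left of 0, with Kcnc2 farthest at -0.92.

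Kcnc1 read 9.85, 9.88 and 9.75 with vehicle, 9.61, 9.58 and 9.64 at 0.002 mg/kg and 9.53, 9.68 and 9.54 at 0.2 mg/kg. Both exposed groups lay below every vehicle array. The difference at 0.2 mg/kg was -0.24 (SE 0.05) and did not pass (limma adjusted p = 0.0630). Kcnc2 probe ILMN_1375686 read 10.87, 11.07 and 10.41 with vehicle and 9.94, 9.42 and 10.25 at 0.2 mg/kg, a difference of -0.92 (SE 0.23, adjusted p = 0.102). Its other probes gave -0.24 and -0.25, so the 3 probes shared a direction and not a size. Kcnk1 read 12.75, 13.10 and 12.59 with vehicle and 11.97, 12.08 and 12.45 at 0.2 mg/kg, without overlap, and its difference was -0.65 (SE 0.16, adjusted p = 0.102).

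Further members with a small unadjusted p did not pass either. Kcnj4, a strong inward rectifier of forebrain neurons, differed by -0.13, Kcns2, a silent subunit, by -0.14, and Kcna4, an A-type Kv1 pore, by -0.33. Kcnk3, an acid-sensitive leak channel, differed by -0.14 and Kcnma1, the BK pore, by -0.18, both near the floor. Kcnb2, a Kv2 pore, differed by -0.26. The adjusted p of the members just named ran from 0.118 for Kcnj4 to 0.247 for Kcnb2. Kcnd2, the A-type pore of dendrites, read 11.65, 11.51 and 11.39 with vehicle and 11.34, 10.77 and 11.31 at 0.2 mg/kg, a difference of -0.37 (SE 0.14, adjusted p = 0.273). Kcnv1 differed by -0.45 (SE 0.17), Kcnip4 by -0.48 (SE 0.20) and Kcnq5 by -0.40 (SE 0.19). Kcnh1 and Kcnh3, in contrast, lay above vehicle, at 0.06 (95% interval -0.16 to 0.29) and 0.23 (-0.13 to 0.60), neither past the threshold. The members above vehicle with an unadjusted p under 0.05 were Kcns1 at 0.14 (limma adjusted p = 0.301) and, near the floor, Kcnn4 at 0.10 (0.257). Kcnip3 lay above vehicle by 0.15 without overlap (adjusted p = 0.563).

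**Figure D3:**
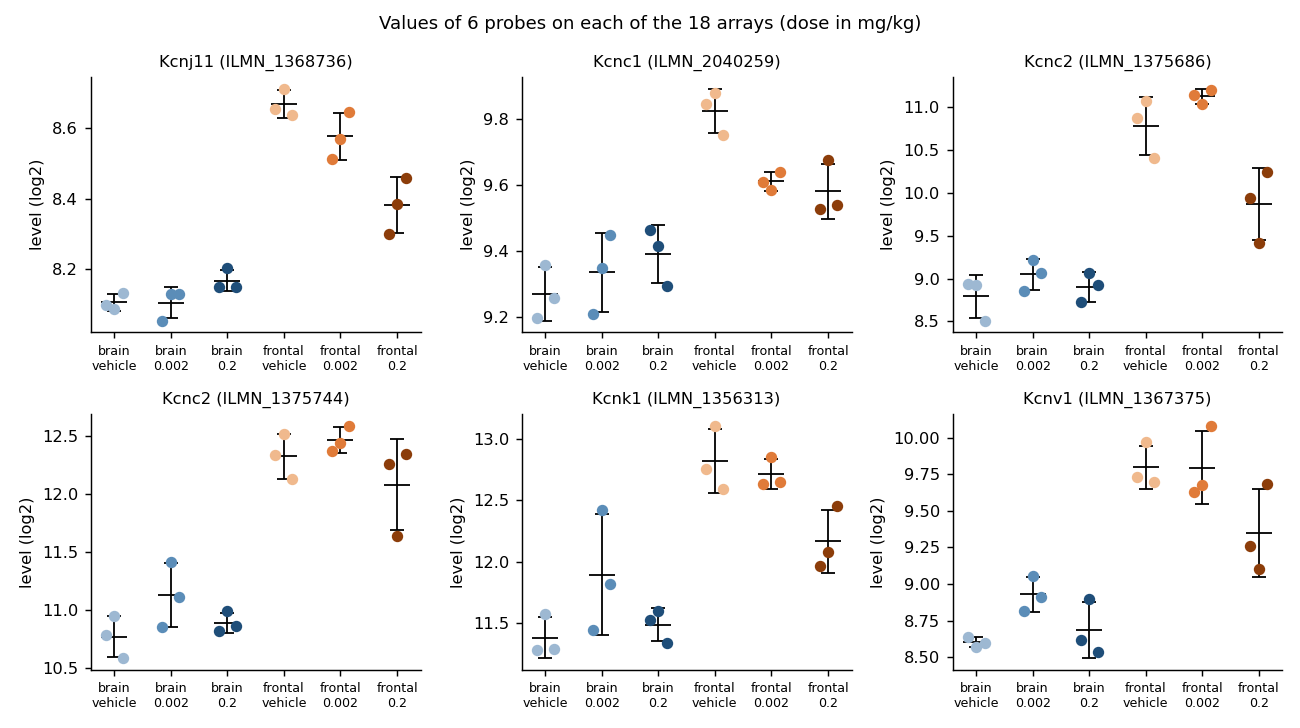
Log2 level of 6 probes on each of the 18 arrays, with 1 panel per probe and its own vertical axis that does not start at 0; points are pups, the wide bar is the group mean and the whiskers are 1 SD (n = 3). Kcnj11 in frontal lobe steps from 8.67 with vehicle to 8.38 at 0.2 mg/kg, while its total brain group means lie between 8.10 and 8.17.

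Neuron markers had low values on the same arrays as a list average, although not one by one. The 41 members above the floor averaged -0.06, -0.22 and -0.05 from the frontal lobe mean on the 3 arrays of 0.2 mg/kg, and the 7 general neuron markers averaged -0.12, -0.28 and -0.10. On the 6 vehicle and 0.002 mg/kg arrays the neuron markers lay between 0.03 and 0.15. Replicate 2 of 0.2 mg/kg was the lowest of the 3 for 22 of the 41 members. As levels, the 7 neuron markers averaged 12.07 to 12.26 at 0.2 mg/kg and 12.38 to 12.43 with vehicle, none of the 7 markers lying near the floor. Of the 7 markers 5 lay below vehicle, from -0.06 for Nefm to -0.66 for Snap25, and Stmn2 (0.19) and Rbfox3 (0.12) lay above it. In limma 0 of the 7 passed (background 1.14%) and 5 had an unadjusted p under 0.05 (background 15%). The 3 excitatory neuron markers averaged 9.72 to 10.16 and 10.32 to 10.55, and 1 of the 3, Slc17a7, was called lower (-0.78, limma adjusted p = 0.0179). The 5 interneuron markers averaged 10.94 to 11.04 at 0.2 mg/kg and 11.08 to 11.23 with vehicle, although 3 of the 5 lay above vehicle one by one and none passed. Pvalb averaged 10.06 at 0.2 mg/kg and 10.00 with vehicle, and Sst and Gad1 also lay above vehicle. Gad2 (9.25 and 9.82) and Vip (11.01 and 11.38) lay below it. Meningeal and fibroblast markers averaged 10.55 to 10.97 and 10.08 to 10.57, and all 7 lay above vehicle on average, of which Igfbp2 passed (0.88). Microglial markers averaged 9.18 to 9.39 at 0.2 mg/kg and 9.05 to 9.17 with vehicle, and red blood cell markers 9.87 to 9.88 and 9.60 to 9.81. Of these 5 and 4 markers 0 passed in limma, and 3 and 2 had an unadjusted p under 0.05. Astrocyte markers averaged 12.14 to 12.50 at 0.2 mg/kg and 11.98 to 12.28 with vehicle. Oligodendrocyte markers averaged 10.87 to 10.98 and 10.57 to 10.87, and the groups overlapped for both lists. On the 3 arrays of 0.2 mg/kg the astrocyte markers averaged -0.08, 0.28 and 0.06 from the frontal lobe mean. The part of these shifts in the channel values was not tested.

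**Figure D4:**
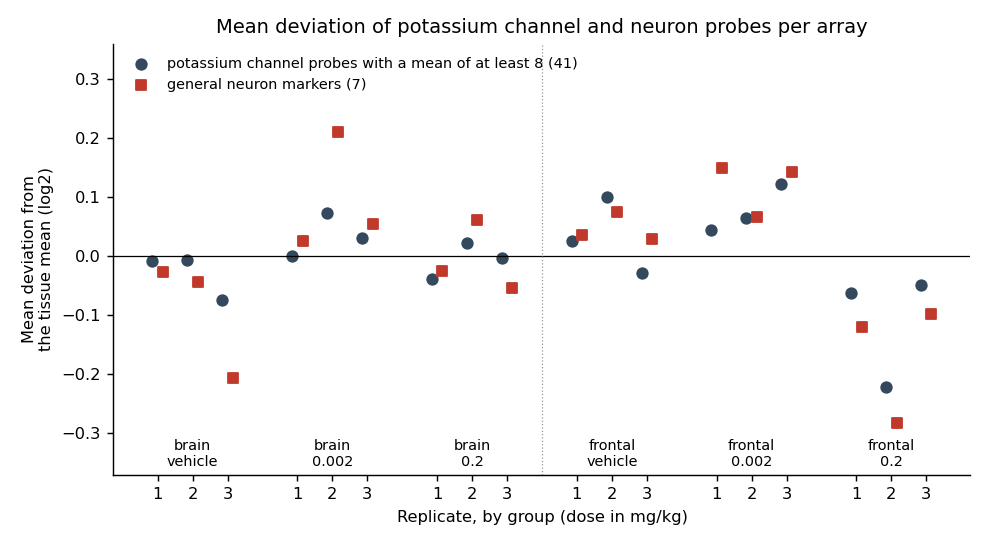
Mean deviation from the tissue mean (log2, vertical axis) of the 41 potassium channel probes above the floor (circles) and of 7 general neuron markers (squares) on each array, with replicates along the horizontal axis by group. Both sets lie below 0 on the 3 frontal lobe arrays of 0.2 mg/kg, with replicate 2 lowest at -0.22 and -0.28.

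Frontal lobe at 0.2 mg/kg was also set against 0.002 mg/kg, which uses the same 0.2 mg/kg arrays with other reference pups. Again 1 of 85 members passed (background 2.87%, or 1.44% for lower calls), here Kcnc2 probe ILMN_1375686. It read 11.14, 11.03 and 11.21 at 0.002 mg/kg against 9.94, 9.42 and 10.25 at 0.2 mg/kg, without overlap. The limma difference was -1.26 (SE 0.23, adjusted p = 0.0324). The call was lost without 0.2 mg/kg replicate 1 (-1.29, adjusted p = 0.0658) or 2 (-1.04, 0.0636), and without 0.002 mg/kg replicate 1 (-1.25, 0.113), 2 (-1.31, 0.107) or 3 (-1.22, 0.117). Of the 6 fits that left out 1 compared array it was kept only without 0.2 mg/kg replicate 3 (-1.45, adjusted p = 0.0254). With the replicate number as a block the adjusted p was 0.0978. The other Kcnc2 probes gave -0.39 (SE 0.19) and -0.34 (SE 0.11) without passing. Across the 9 frontal lobe arrays the 3 Kcnc2 probes correlated at 0.86 to 0.95, a description over arrays that share groups.

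Below 0 were 63 of the 85 members, with a median of -0.04 beside 0.00 for all probes, and 33 of the 41 above the floor, with a median of -0.13 beside -0.01. Groups did not overlap for 24 lower members (28.2%, background 12.9%) and 4 higher ones (4.71%, background 13.2%). At an unadjusted p under 0.05 there were 21 members below and 4 above (29.4% together, background 18.7% with both directions pooled). Kcna6, a Kv1 pore, differed by -0.22 (adjusted p = 0.0628), Kcnma1 by -0.27 (0.0653), Kcnj11 by -0.20 (0.0798) and Kcng3, a silent subunit, by -0.15 (0.0956). Of these Kcnma1 and Kcng3 lay near the floor. Kcnb2 differed by -0.33 (adjusted p = 0.105), Kcnk1 by -0.54 (0.115), Kcnd2 by -0.45 (0.138) and Kcnf1, a silent subunit, by -0.42 (0.142). The 4 above 0 with such a p were Kcnj16, the glial partner of Kcnj10 (0.21), Kcns1 (0.14), Kcnk15 (0.08) and Kcnj2 (0.05), 3 of them near the floor. Of the 7 neuron markers 3 were lower here (background 1.44%), Snap25 (-0.73), Syt1 (-0.67) and Nefl (-0.62). Stmn2 (0.17) and Rbfox3 (0.11) lay above 0.002 mg/kg without passing. The excitatory marker Slc17a7 was lower (-0.91). Igfbp2 (1.31) and Igf2 (0.94) of the meningeal list were higher.

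The members that were higher in vehicle frontal lobe than in vehicle total brain could be looked up in the comparison of the exposed groups, which uses no vehicle array. Of these 28 probes 25 (89.3%) were lower at 0.2 than at 0.002 mg/kg in frontal lobe, with a median of -0.17. Of all 2001 probes that were higher in frontal lobe under every scaling 71.6% were lower at 0.2 mg/kg, with a median of -0.12. In total brain 16 of the same 28 members (57.1%) were lower at 0.2 than at 0.002 mg/kg, with a median of -0.03, beside 54.2% and -0.01 for all such probes.

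At 0.002 mg/kg in frontal lobe 0 of 85 members passed in limma (background 0%), and 4 had an unadjusted p under 0.05 (background 5.11%). These were Kcnc1 at -0.21 (SE 0.05), Kcng1, a silent subunit, at 0.38 (SE 0.12), Kcnmb4 at -0.27 (SE 0.09) and Kcnk10, a leak channel near the floor, at -0.08 (SE 0.03). Each had an adjusted p of 0.91. Kcnmb4 read 10.71, 10.81 and 10.99 with vehicle and 10.69, 10.39 and 10.60 at 0.002 mg/kg, and Kcnc1 and Kcnmb4 arrays did not overlap with vehicle. The Kcnj11 difference was -0.09 with a 95% interval of -0.21 to 0.02. The median over the members was 0.02 and 38 of 85 lay below 0. Arrays did not overlap with vehicle for 7 higher members (background 7.07%) and 4 lower ones (background 5.7%).

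In total brain at day 10 no dose comparison gave a call among the members, nor among all probes (background 0% in each). At 0.002 mg/kg 0 of 85 passed in limma and 6 had an unadjusted p under 0.05 (background 6.52% with both directions pooled), all above vehicle. Kcnk3, near the floor, read 7.89, 7.91 and 7.99 with vehicle and 8.03, 8.11 and 8.07 at 0.002 mg/kg. Its difference was 0.14 (SE 0.03, adjusted p = 0.733). Kcnv1 read 8.64, 8.57 and 8.59 against 8.81, 9.06 and 8.91, a difference of 0.33 (SE 0.10). These groups did not overlap. Kcnq5 differed by 0.28, Kcnc2 probe ILMN_1375744 by 0.36, Kcnd3 by 0.29 and Kcnj5, near the floor, by 0.06, all with the same adjusted p of 0.733. Kcnk1 had the largest difference, 0.51 (SE 0.22), and its 0.002 mg/kg arrays spread from 11.45 to 12.42 beside 11.28 to 11.58 with vehicle. Arrays did not overlap with vehicle for 9 higher members (background 6.34%) and 2 lower ones (background 6.63%).

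At 0.2 mg/kg in total brain 0 of 85 passed and 2 had an unadjusted p under 0.05 (background 4.32%). These were Kcnab3, a Kv1 beta subunit, at 0.07 and Kcnk3 at 0.09, both near the floor. Differences ran from -0.13 to 0.16 over the 85 members, with a median of 0.00. Groups did not overlap for 4 higher members (background 4.88%) and 2 lower ones (background 5.25%). For Kcnj11 the arrays read 8.10, 8.09 and 8.13 with vehicle, 8.05, 8.13 and 8.13 at 0.002 mg/kg and 8.15, 8.20 and 8.15 at 0.2 mg/kg. The 0.2 mg/kg arrays lay above every array of both other groups, and the difference of 0.06 from vehicle had a 95% interval of -0.01 to 0.13. Between 0.2 and 0.002 mg/kg 0 of 85 passed and 6 had an unadjusted p under 0.05 (background 5.87%). Kcns1 (0.10), Kcnn4 (0.09), Kcnj9 (0.08) and Kcnab3 (0.07) lay above 0, and Kcnv1 (-0.25) and Kcnh8 probe ILMN_1360312 (-0.06) below. Kcnn4, Kcnab3 and this Kcnh8 probe lay near the floor. Groups did not overlap for 7 higher members (background 5.35%) and 2 lower ones (background 5.6%).

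Whether an exposure difference itself differed between frontal lobe and total brain was tested with an interaction term over all 18 arrays. At 0.2 mg/kg 1 of 85 members passed, Kcnj11 (background 0.204%, or 0.111% for negative and 0.0932% for positive calls). Its difference from vehicle was -0.29 in frontal lobe and 0.06 in total brain, so that the interaction was -0.35 (SE 0.06, adjusted p = 0.0246). The call was lost in 10 of the 12 fits that left out 1 compared array, with adjusted p from 0.0515 without frontal lobe vehicle replicate 1 to 0.0868 without total brain vehicle replicate 2. It was kept without frontal lobe vehicle replicate 3 (adjusted p = 0.0148) and without frontal lobe 0.2 mg/kg replicate 3 (0.0119). With trend and robust priors it was lost (0.0632). At an unadjusted p under 0.05 were 11 of 85 members, a share close to the background of 12% in both directions together. All 11 were negative, for which no background by direction is given. Among them were Kcnc1 (-0.37, adjusted p = 0.123), Kcnc2 probe ILMN_1375686 (-1.03, 0.167), Kcnk1 (-0.75, 0.314) and, near the floor, Kcnk3 (-0.23, 0.156). At 0.002 mg/kg 0 of 85 passed (background 0%) and 4 had an unadjusted p under 0.05 (background 4.92%).

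Partner genes that assemble with potassium channels or set potassium gradients were measured by 22 probes of 21 genes. In frontal lobe 1 of 22 (4.55%) was called at 0.2 mg/kg against vehicle (background 1.14%), and the same gene against 0.002 mg/kg (background 2.87%). It was Pex5l, which encodes a binding partner of HCN pacemaker channels, relatives of potassium channels. Pex5l differed by -0.95 (SE 0.12, limma adjusted p = 0.0179) from vehicle and by -0.88 (SE 0.12, adjusted p = 0.0168) from 0.002 mg/kg, and its interaction with tissue was -0.84 (adjusted p = 0.0246). Between the vehicle groups Pex5l was higher in frontal lobe by 2.04 (SE 0.10), 1 of 4 partner probes that were higher (18.2%, background 9.01%), while 8 were lower (36.4%, background 43.7%).

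Abcc8, the sulphonylurea receptor that joins Kcnj11, did not pass in any dose comparison. It differed by -0.15 (95% interval -0.43 to 0.13) at 0.2 mg/kg in frontal lobe. Slc12a5, the chloride-extruding potassium cotransporter of neurons, differed by -0.75 (adjusted p = 0.234), Atp1b2, a sodium pump subunit of glia, by -0.62 (0.137) and Lgi1, a secreted partner of Kv1 complexes, by -0.33 (0.323). Dpp10, a Kv4 partner, differed by -0.33 and Dpp6, its relative, by 0.06. None of the partners in this paragraph passed in this comparison. The falls named here do not describe the partner list, whose median was -0.03 with 13 of 22 probes below 0.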

How the data were processed

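Biotin-labelled cRNA of each pup was hybridised to an Illumina rat array, per the labels. Per the submitters' processing notes the authors used lumi, and they deposited normalised log2-like values. The lumi version, the transformation and the kind of normalisation are not stated in the labels, and near the floor a variance-stabilising scale would compress differences. No counts exist, so the number of arrays limits precision. The deposited log2 values were tested unfiltered with limma 3.58.1 in R 4.3.3 (lmFit, eBayes): doses within a tissue on its 9 arrays, tissue and interaction on all 18. Adjusted p is Benjamini-Hochberg over 22523 probes, threshold 0.05. The fit was tested on simulated data with independent noise for each probe, which does not cover shifts shared by all probes of an array. Probes were named from the platform annotation, and all 85 members matched RefSeq by Entrez identifier. Named are members past the threshold (at most 12 per direction by size), the smallest unadjusted p up to 10, and a list of brain channels. Members and lists were chosen with earlier results of these data known. 1 further gene is not reported here. Figures used matplotlib 3.10.9 in Python 3.11.15. Alternatives covered scaling, dim probes, prior, array weights, replicate block, threshold, compared groups and each array left out.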

Additional observations from a re-analysis of the deposited data

Results flagged for a closer look

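The Kcnj11 difference at 0.2 mg/kg was tested between frontal lobe at day 41 and total brain at day 10. The interaction was -0.35 (SE 0.06, limma adjusted p = 0.0246), with adjusted p from 0.0119 to 0.0868 over its alternatives. The call was lost in 11 of 20 settings. Kcnj11 averaged 8.11 in vehicle total brain, close to the floor level of 8, and 8.67 in vehicle frontal lobe, so a fall had less room to show in total brain. Tissue, age and exposure schedule differ together and cannot be told apart here. In frontal lobe 0 of 3 exposed arrays reached the lowest vehicle array, and in total brain 3 of 3 lay above the highest.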

How the results depend on the processing

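All 104 named differences kept their direction under every alternative run. They were chosen on the same arrays that the alternatives reuse, so a kept direction does not show that a difference would repeat. Of 1642 results under an alternative 1559 stayed on the same side of the threshold, 62 lost their call and 21 gained one, and none reversed. The 1559 include results that were not called in the main fit and stayed so. Kcnj11 at 0.2 mg/kg in frontal lobe lost its call in 8 of 15 settings, and its interaction in 11 of 20. For frontal lobe at 0.2 mg/kg against vehicle the count of 1 member became 3 with the brighter 50% of probes only (Kcnj11, Kcnc2 and Kcnk1), 2 with trend and robust priors (Kcnc2 and Kcnk1) or at an adjusted p under 0.1 (Kcnj11 and Kcnc1), and 0 with array weights or only the 2 groups compared. Kcnj11 then had adjusted p of 0.0561 (trend and robust), 0.0568 (array weights) and 0.136 (2 groups), and arrays left out gave 0 to 4 members. Against 0.002 mg/kg the count of 1 became 2 (brighter probes, Kcnc2 and Kcnma1), 6 (trend and robust) or 5 (adjusted p under 0.1), and 0 to 2 with arrays left out. The interaction count of 1 became 0 with trend and robust priors (Kcnj11 adjusted p = 0.0632) and 0 to 4 with arrays left out. The tissue count of 48 became 36 to 44 with arrays left out. The other 4 comparisons with 0 calls, and the 0.002 mg/kg interaction, stayed at 0 throughout. With the replicate number as a block the calls were 0 of 85 against vehicle (Kcnj11 adjusted p = 0.0765), 0 against 0.002 mg/kg and 29 between tissues, of which 28 were shared. Pups of the dose groups come from different litters, so the replicate number does not pair litter mates. Deviations of same-numbered arrays correlated at -0.29 to 0.44 in total brain (6 of 9 pairs over 0.1) and at -0.25 to 0.11 in frontal lobe (1 of 9). Structure shared by replicate number was thus not shown to be absent in total brain. The cause of these changes was not tested. Signal near the floor limits 44 of the 85 probes.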
